A study of Drosophila melanogaster with 4 samples.

Results

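The reaper locus is the stretch of chromosome arm 3L that carries the pro-apoptotic genes hid, grim, rpr and skl, and it was examined here for trimethylation of histone H3 at lysine 27 (H3K27me3). Its members are all enriched regions that overlap 3L from 18160000 to 18460000, a window of 300 kb in Release 5 of the fly genome, the build named in the file headers. They numbered 11 of 1486 regions in ChIP replicate 1, 13 of 1459 in replicate 2 and 16 of 2279 in a list for the series as a whole, 40 of 5224 in all. The window was chosen from these same lists because it holds the longest region of both replicates. The widths, positions and scores below therefore describe the locus and were not tested.

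The flies were of Drosophila melanogaster strain Oregon-R (Oregon-R-modENCODE), wild type in genotype, and embryos were used whole and untreated at 14 to 16 h. Of the 4 libraries, 2 were precipitated with an antibody to H3K27me3 and 2 were inputs of the same strain and stage, each labelled as the input behind the regions of the like-numbered ChIP library. The sources used here do not say whether the replicates were collected separately. Whole embryos mix many tissues, so marking in a few cells and weak marking in many cannot be told apart.

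H3K27me3 is written by the Polycomb repressive complex PRC2 and is known for covering silent developmental genes in broad domains. hid, grim, rpr and skl (sickle) encode killer proteins of one family. They bind inhibitor of apoptosis proteins such as Diap1 and so release caspases such as Dronc, which then act on effector caspases. Transcription of these genes is a main switch of programmed cell death in the fly. In the fly embryo the intergenic DNA of this locus is known to include an enhancer region through which irradiation induces rpr and hid, and which is closed by repressive chromatin as the embryo ages.

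hid, also called head involution defective and Wrinkled, is known as a target of survival signalling through the Ras pathway and of the microRNA bantam. rpr (reaper) is known to be induced by p53 after irradiation and by the steroid hormone ecdysone. grim and skl complete the group. In the RefSeq gene table, which belongs to Release 6, all 4 genes were found by symbol, in the order hid, grim, rpr, skl with rising coordinate on 3L. That table lists 13 other genes between hid and skl, of which 4 code for proteins. These 4, CG7320, CheA75a, CG5103 and CG13700, all lie between hid and grim. No other protein-coding gene stands between grim, rpr and skl, where the table, ordered by gene start, lists 4 non-coding RNAs. Since the gene table and the region lists use different builds, no region was assigned to a gene.

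Most of the locus lay in 1 unbroken H3K27me3 domain. In replicate 1 it ran from 18244516 to 18449376, a width of 205 kb. In replicate 2 it ran from 18241767 to 18449996, or 208 kb. The series list gave 18237508 to 18450065, or 213 kb. It ranked first by width in all 3 lists, a property the window was chosen for. The next longest region, on 3R, measured 186 kb in replicate 1 and 188 kb in replicate 2, so the domain was 1.10 times as long in each. By itself the domain held 6.43% of all the bases called on 3L in replicate 1 and 6.20% in replicate 2.

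In bases, 76.6% of the window was called in replicate 1 and 79.1% in replicate 2, a mean of 77.9% ± 1.7 (SD, n = 2). The series list called 86.2%. For comparison, the lists called 11.9%, 12.3% and 14.7% of the 6 major chromosome arms, and 13.0%, 13.7% and 16.5% of arm 3L, in the order replicate 1, replicate 2 and series list. The window was picked for its long region, and its called share is therefore high by choice. Outside the 205 kb called as 1 region in both replicates, the rest of the window was called over 26.3% in replicate 1 and 34.1% in replicate 2.

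**Figure D1:**
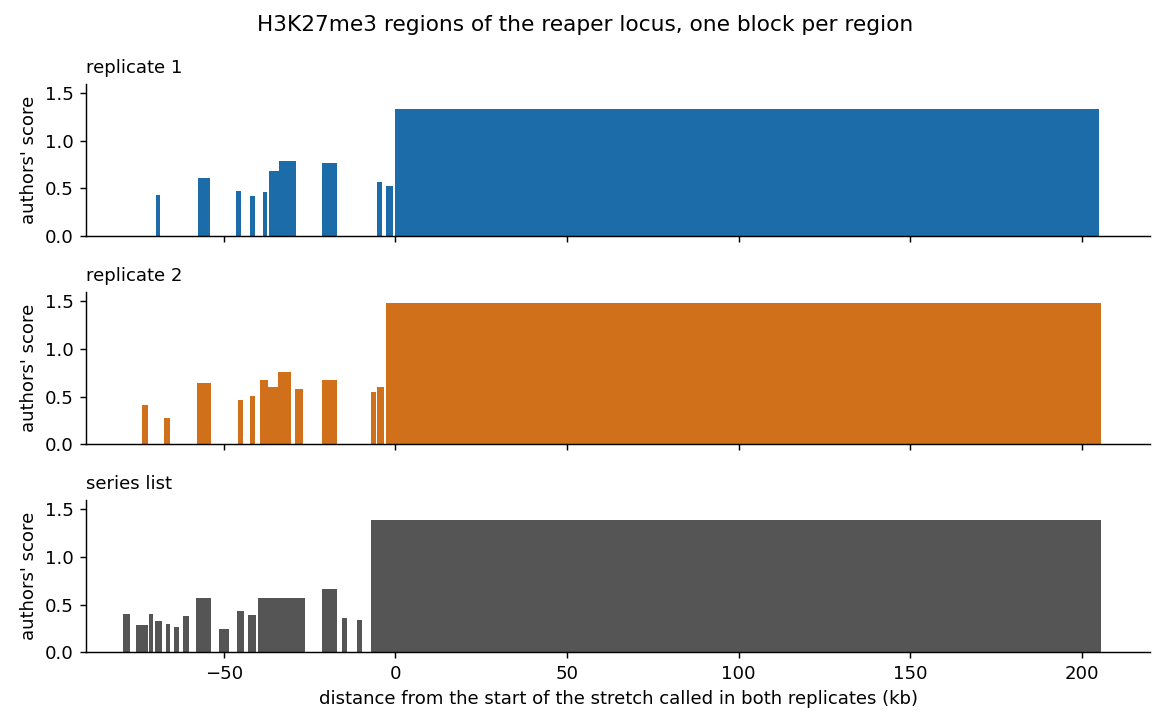
Every region of the locus in each list, drawn as a block from its start to its end, against the distance in kb from the start of the stretch called in both replicates (horizontal axis); block height is the authors' score for the region (vertical axis). The long domain scores 1.34, 1.48 and 1.39 in replicate 1, replicate 2 and the series list, and all shorter regions lie on its low-coordinate side.

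The length of the domain went with a modest score for its size. The score is the authors' own positive value for each region, on a scale that the sources used here do not give, and it was used to describe and rank regions within a list. Values of different lists stand side by side without a comparison between them. The domain scored 1.34 in replicate 1, rank 214 of 1486, and 1.48 in replicate 2, rank 189 of 1459. In the series list it scored 1.39, rank 207 of 2279. It thus stood above 85.6% and 87.0% of the regions of the replicates, whose median scores were 0.619 and 0.602. Among regions of at least 50 kb, however, it ranked 56 of 61 in replicate 1 and 55 of 63 in replicate 2, where the medians were 2.18 and 2.19. The other 4 of the 5 longest regions scored between 2.00 and 2.60 in replicate 1 and between 1.99 and 2.55 in replicate 2. The rule did not use scores, but they come from the same calls as the widths, so this too is a description.

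**Figure D2:**
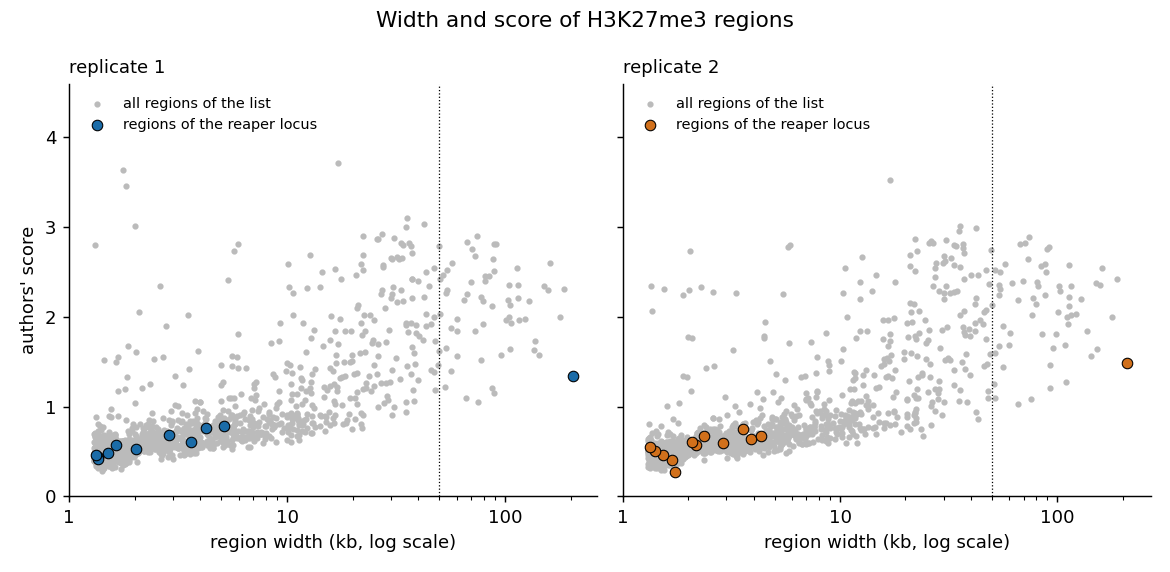
Width (horizontal axis, kb, log scale) and authors' score (vertical axis) of every region in replicate 1 (left) and replicate 2 (right); grey points are all regions, coloured points are those of the reaper locus, and the dotted line marks 50 kb. The point farthest right is the domain at 205 kb and 208 kb, which lies below most other regions of at least 50 kb.

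The ends of the domain differed in form. Gene order is given here for direction only and does not show which genes lie inside the domain. On the high-coordinate side, where skl stands last in the gene order of the Release 6 table, it ended at 18449376 in replicate 1, 18449996 in replicate 2 and 18450065 in the series list. The replicates thus differed by 620 bp there. No further region was called for 393 kb in replicate 1 and 392 kb in replicate 2. The next one began at 18841986 and 18841916, was 14.7 kb wide in both replicates and had scores of 1.22 and 1.21. Among the gaps between neighbouring regions this was the 84th longest of 1477 in replicate 1 and the 84th longest of 1449 in replicate 2. Whether reads can be aligned uniquely across that gap was not tested.

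On the low-coordinate side, where hid stands first in that order, the domain gave way to a string of short regions. Whether hid lies in the domain, in the string or outside both was not determined. The start of the domain differed by 2749 bp between the replicates, because replicate 1 had a break of 560 bp from 18243956 to 18244515 that replicate 2 called through. The one-to-one pairs of regions of at least 10 kb have 380 ends, a set that does not include the domain. Of these, 1 differed by more than 2749 bp and 37 by more than the 620 bp of the other end. Such pairs leave out any region whose end was moved by a break that the other replicate called through. The 1 of 380 therefore does not show how usual a difference of 2749 bp is. From the first to the last, the short regions reached over 69.2 kb (replicate 1) and 70.5 kb (replicate 2). They numbered 10 and summed to 25.05 kb in replicate 1, and numbered 12 and summed to 29.0 kb in replicate 2. Of the 84.5 kb between the window's edge and the start of the domain in replicate 1, they took up 29.6% and 34.4%, a mean of 32.0% ± 3.3 (SD, n = 2). In the series list 15 short regions took up 54.4%. These shares leave out the bases of the domain itself, which began 2.749 kb earlier in replicate 2 and 7.008 kb earlier in the series list.

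In the replicates the short regions took up less of the sequence away from the domain. With this side divided at its midpoint, they covered 43.9% of the part nearer to the domain in replicate 1 and 47.8% in replicate 2, a mean of 45.8% ± 2.7 (SD, n = 2). In the farther part the shares were 15.4% and 21.0%, a mean of 18.2% ± 4.0 (SD, n = 2). The nearer part was higher in both replicates. Since the division was set after the positions were seen, this is a description and was not tested. In the series list the short regions covered 54.3% of the nearer part and 54.5% of the farther part. The domain itself took up 7.008 kb of that nearer part, which left less room for short regions. With all called bases counted, the series list called 70.8% of the nearer part and 54.5% of the farther part. The rise was not smooth in the replicates. In bins of 20 kb from the low end of the window, all called bases counted, replicate 1 called 6.81%, 25.6%, 53.3%, 25.7% and 91.2%, and replicate 2 called 17.1%, 26.1%, 63.2%, 32.7% and 97.2%. The fourth bin dipped in both, and the fifth holds the start of the domain. From bin 6 on, 9 bins were called whole in all 3 lists.

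**Figure D3:**
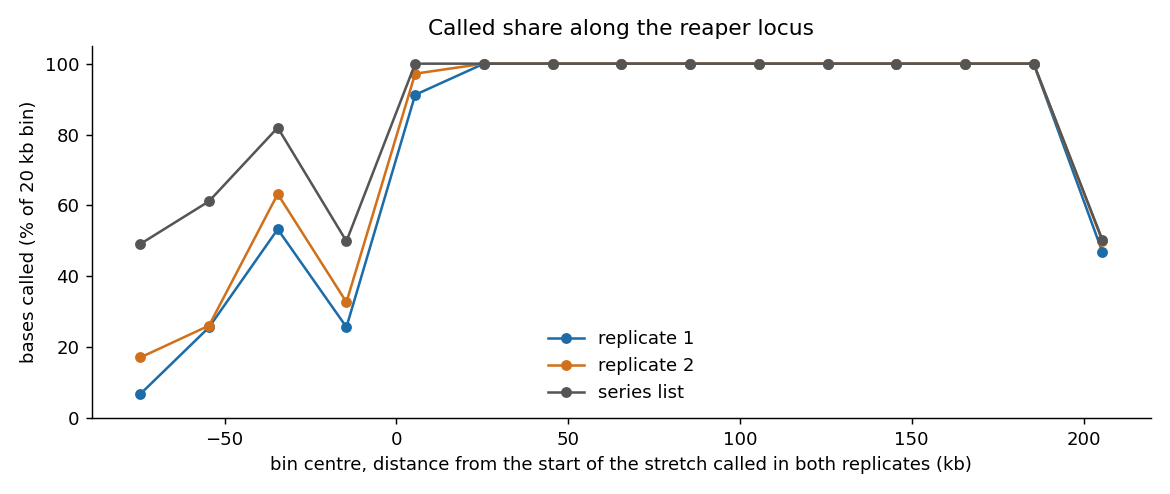
Share of bases called (vertical axis, % of each 20 kb bin) along the window, against the distance of the bin centre in kb from the start of the stretch called in both replicates (horizontal axis), for the 3 lists. The share climbs unevenly on the low side with a dip at the fourth bin (25.7% and 32.7% in the replicates), stays at 100% through the domain and ends in a bin called over 46.9%, 50.0% and 50.3%.

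The median scores of the short regions were close to those of all regions under 5 kb in their lists. The 10 of replicate 1 were 1323 to 5112 bp wide with scores from 0.417 to 0.785 and a median of 0.546. The 12 of replicate 2 were 1336 to 4328 bp wide with scores from 0.273 to 0.755 and a median of 0.586. All regions under 5 kb had median scores of 0.548 in replicate 1 and 0.532 in replicate 2. These sets include the short regions of the locus, except the one of 5112 bp in replicate 1. The lowest score of the whole replicate 2 list, 0.273, belonged to a member of the locus, from 18177205 to 18178945. This stretch was not called in replicate 1, and the series list had a region of 1222 bp there with a score of 0.299. Its choice as an example followed from its rank.

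In both replicates the median score of the short regions was higher in the part nearer to the domain. It was 0.567 over 7 regions against 0.478 over 3 regions in replicate 1. In replicate 2 it was 0.599 over 8 regions against 0.436 over 4. The ranges of the 2 parts overlapped in both replicates. A region was placed by its midpoint, and the division was set after the positions were seen.

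Most short regions recurred, counted as an overlap of at least 1 bp. Such an overlap could be partial, and the smallest share was 16.9%, for the replicate 2 region from 18215334 to 18217512. Of the 10 in replicate 1, 9 overlapped a region of replicate 2, which for 1 of them was the domain, and of the 12 in replicate 2, 9 overlapped a region of replicate 1. Over the whole lists, 72.7% of replicate 1 regions under 5 kb and 63.0% of those of replicate 2 met the other replicate. With 10 and 12 regions in a locus picked from these lists, no difference from those shares was tested. The regions found in 1 replicate alone were 18174747 to 18176108 in replicate 1 (score 0.435) and, in replicate 2, 18170664 to 18172348 (0.410), 18177205 to 18178945 (0.273) and 18237561 to 18238896 (0.548). The first 3 of these were the outermost members of their lists, so that end of the string was called at different places in the replicates.

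Of the 6 regions of the locus that matched one to one between replicates, the 2 widest ended 53.98 kb and 17.0 kb before the start of the domain in replicate 1. The first was called at 18186923 to 18190537 in replicate 1 and at 18186834 to 18190744 in replicate 2, with scores of 0.605 and 0.639. The second ran from 18223299 to 18227530 and from 18223188 to 18227515, with scores of 0.766 and 0.669. The closest match in position was a narrower one, at 18202250 to 18203608 in replicate 1, whose ends differed by 32 and 76 bp in replicate 2. Over all 6, the 12 ends differed by 15 to 868 bp with a median of 145 bp. One-to-one pairs under 5 kb in both lists, 412 in all, had a median of 241 bp.

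Between these lay a compact group that the replicates cut in different ways. Replicate 1 listed 3 regions between 18205910 and 18215701, and replicate 2 listed 4 from 18205042 to 18217512, with scores of 0.460 to 0.785 and 0.576 to 0.755. The series list gave the same stretch as 1 region of 13.7 kb, from 18204396 to 18218130, with a score of 0.567. The breaks inside it were as short as 73 bp in replicate 1 and 34 bp in replicate 2, and these 2 breaks lay 84 bp apart without overlapping. Each was called as enriched in the other replicate.

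The longest breaks overlapped between the replicates. The longest in each replicate separated the second of these from the domain's immediate neighbours, at 18227531 to 18239089 in replicate 1 (11559 bp) and at 18227516 to 18237560 in replicate 2 (10045 bp). The series list listed 2 regions inside it, of 1512 and 1414 bp, with scores of 0.357 and 0.342. Of the 10 breaks of replicate 1, 8 overlapped a break of replicate 2, and of the 12 of replicate 2, 10 overlapped one of replicate 1. Over the whole lists these shares were 83.5% and 90.7%, so the counts of the locus were near the usual ones. The remaining 2 breaks in each were called whole in the other replicate, and 1 of them was 1327 bp long.

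Over the window the replicates shared 226 kb of the 241 kb called in either, or 94.1%, against 86.5% over the 6 major arms. The domain itself set this value, since it gave 205 kb of the shared bases. On its low-coordinate side the replicates shared 21.6 kb of 35.2 kb, or 61.3%, with 3.45 kb called in replicate 1 alone and 10.2 kb in replicate 2 alone, the start of the domain in replicate 2 included. The shared fraction was 70.3% in the nearer part and 41.1% in the farther part.

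The series list, which is not independent of the replicates, extended the string. It also admits narrower regions, down to 1001 bp against 1301 bp in each replicate. Of its 16 regions, 6 overlapped both replicates, 1 replicate 1 alone, 2 replicate 2 alone and 7 neither. Over the whole list 40.7% overlapped neither, so 7 of 16 is near the usual share. The 7 were 1186 to 3001 bp wide, summed to 12.3 kb and had scores from 0.239 to 0.405. One of them, from 18165194 to 18167141 (score 0.405), was the outermost member. All 10 short regions of replicate 1 and all 12 of replicate 2 met a region of the series list, as did 99.2% and 99.5% of all regions of these replicates.

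The edges of the window cut through no region. The first members began 14.7 kb inside it in replicate 1, 10.7 kb in replicate 2 and 5.19 kb in the series list. Just outside, the series list had a region of 1028 bp from 18151279 to 18152306 (score 0.504). In the replicates the nearest earlier regions ended at 18012301 (score 0.527) and 18012215 (0.906), which left 162 kb and 158 kb without a call before the first member. From its first member to the end of the domain the locus spanned 275 kb in replicate 1, 279 kb in replicate 2 and 285 kb in the series list.

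A side with as many regions as the low side of the domain was uncommon among long regions. How often such a side stood opposite an empty one was not counted. Within 80 kb, the domain had 10 other regions on its low side in replicate 1 and 12 in replicate 2, and 0 on its high side in both. Over the 122 sides of the 61 regions of at least 50 kb in replicate 1 the median count was 1, and 5 sides, this one included, had 10 or more. In replicate 2, 4 of 126 sides had 12 or more. An empty side was common, at 33.6% and 34.1% of sides. By the difference in count between the sides the domain ranked 4 of 61, a tied rank, and 2 of 63. That rank does not ask for an empty side. These counts were not repeated with regions under 1 kb apart merged. On the low side of the domain, 3 breaks in replicate 1 and 4 in replicate 2 were under 1 kb. Merging would therefore lower its counts of 10 and 12. In called bases the low side was less unusual, since 47 of 122 and 42 of 126 sides held at least its 25.05 kb and 29.0 kb. The distance and the 50 kb limit were chosen after the positions were seen.

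The other 4 of the 5 longest regions had fewer neighbours. In replicate 1 the 186 kb region on 3R (12624865 to 12810710) had 2 regions and 75.2 kb on its low side and 4 regions and 11.1 kb on its high side. The 178 kb region on 2L (11316994 to 11495123) had 3 regions and 33.0 kb on its low side. The 160 kb region on 3L (12565573 to 12725962) had 1 region and 30.8 kb there, and both of these had none on the high side. The 158 kb region on X (4266788 to 4424604) had none on its low side and 1 of 56.7 kb on its high side. In replicate 2 the counts differed from these by at most 1.

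**Figure D4:**
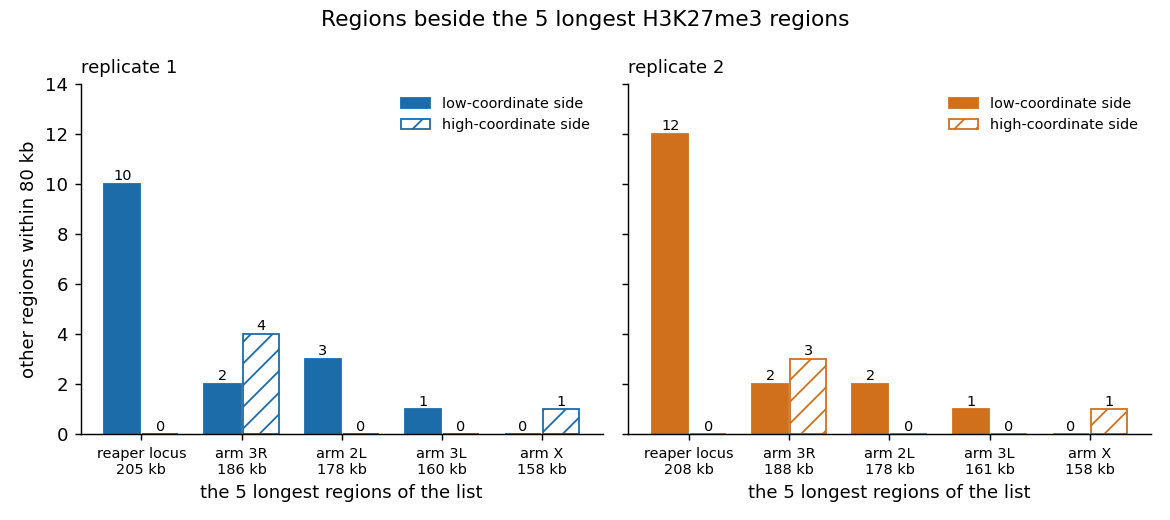
Number of other regions within 80 kb (vertical axis) on the low-coordinate side (filled bars) and high-coordinate side (hatched bars) of each of the 5 longest regions (horizontal axis, with arm and width) in replicate 1 (left) and replicate 2 (right). The reaper locus has 10 and 12 on the low side and 0 on the high side, and the other 4 regions have at most 4 on either side.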

How the data were processed

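Chromatin of 14 to 16 h embryos was precipitated on protein A beads, per the labels' protocols. Bowtie 0.12.7 is named in the submitters' processing notes. The sources used here give neither the caller and its threshold nor how the series list was made. The deposited files are 3 GFF3 region lists whose headers name FlyBase release 5 as genome build. The score in the deposited lists is the authors' value per region, on an unstated scale. Other deposited values used are starts and ends. Read depth is unknown, so no interval that needs it is given, and a missing region only failed the authors' threshold. Inputs entered only through the authors' lists.

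Regions overlapping the window by at least 1 bp were taken as members. A region of the series list that ran past its arm's end was clipped. Breaks are bases between neighbouring members. Pairs are one to one where each region overlaps a single region of the other list. The interval code was tested on simulated data. Python 3.11.15 and matplotlib 3.10.9 were used. The members, lists and comparisons were chosen with earlier results of these data known. Named regions were all members and the 5 longest of each replicate, and, outside that rule, the nearest regions on either side of the window. A planned count over other cell death genes, and the assignment of regions to genes, were not made, because the gene table belongs to another build. It was used for names and gene order only. No sequence is shown, as none was used here. With 2 libraries per group no test was run. The labels number the replicates, and that alone makes them separate samples. Alternatives were the median score, 50% overlap, merging under 1 kb, each replicate alone and flanks of 40 kb and 160 kb.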

Additional observations from a re-analysis of the deposited data

How the results depend on the processing

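The share of the window called, 77.9% as the mean of the replicates, fell to 73.6% when regions under their list's median score were dropped, and to 30.2% without the stretch called in both replicates. It ranged from 76.6% to 79.1% with each replicate left out in turn. The number of regions, a mean of 12, fell to 5 at or above the median score, was 8.5 after merging regions under 1 kb apart and ranged from 11 to 13 with a replicate left out. The shared fraction of 94.1% became 94.2% after merging and 92.8% at or above the median score. The width of the longest region, a mean of 206.5 kb, became 209.9 kb after merging, and ranged from 204.9 kb to 208.2 kb with a replicate left out. Asking for 50% of a region in the window, or for 50% reciprocal overlap of pairs, changed no value. Among regions of at least 10 kb alone, the domain ranked 180 by score in replicate 1 and 165 in replicate 2. That limit drops, among others, the 1020 regions of replicate 1 and 968 of replicate 2 that are under 5 kb. The ranks are therefore places in much shorter lists and not a higher standing than 214 of 1486 and 189 of 1459. The count on the low side, a mean of 11 within 80 kb, was 7 within 40 kb and 11 within 160 kb, and that on the high side was 0 at each distance. These distances were chosen after the data were seen. No paired analysis was possible because like-numbered inputs enter only through the authors' region lists. Limits set by depth were not measured, since no read counts were used.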

Other observations

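Breaks of under 100 bp, such as the 1 in replicate 1 and the 2 in replicate 2 on the low side of the domain, occurred throughout the lists. They made up 52 of 1477 gaps between neighbouring regions in replicate 1 (3.52%) and 61 of 1449 in replicate 2 (4.21%), and for the series list 107 of 2267 (4.72%), while the narrowest region of either replicate was 1301 bp. Some neighbours touched, with 0 bp between them, in replicate 2 and in the series list, and the shortest gap in replicate 1 was 1 bp. A count of regions in a stretch therefore includes such divisions, and in the compact group of the reaper locus the series list showed none of them.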
